A study of Mus musculus with 13 samples.

Results

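The genes described are 7 whose transcription is known to respond to bone morphogenetic protein (BMP) signals: the 4 Id genes (Id1, Id2, Id3 and Id4), Bambi, Atoh8 and Msx1. They were chosen by symbol, not by their values here, and are 7 of the 48709 genes in the table of counts. All 7 passed the filter on low counts, which left 16328 genes for testing. RNA was sequenced from enamel organs, the epithelial tissue that forms enamel, dissected from the mandibular incisors of mice at postnatal day 11. Of the 13 libraries, 5 came from mice heterozygous for the glycine-to-tryptophan substitution G357W in the type II TGF-beta receptor gene (Tgfbr2-G357W/+, called Het) and 8 from littermates with 2 wild-type alleles (Tgfbr2-+/+, called WT). The mutant mice are a model of Loeys-Dietz syndrome type II, a connective tissue disorder, and the comparison asks how the tissue's transcripts differ between the genotypes. Each library was taken as 1 mouse, so the p-values measure the spread between these libraries. Each sample is a whole dissected tissue, in which fewer cells of a type and less RNA per cell cannot be told apart.

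BMPs are ligands of the TGF-beta family. They bind type I and type II receptors that phosphorylate SMAD1, SMAD5 and SMAD9, which enter the nucleus with SMAD4 and switch on target genes, the Id genes among the most direct of them. Id proteins have a helix-loop-helix but no DNA-binding region, so they pair with E proteins and keep them off DNA. BMP signals pass between epithelium and mesenchyme throughout tooth development, and the TGF-beta branch studied here shares SMAD4 and inhibitory SMADs with the BMP branch.

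Depth ranged from 20266079 to 26122340 counts per library in Het and from 18852382 to 26508410 in WT. Tgfbr2 was transcribed in every library, at 1464 to 2280 counts in Het and 1001 to 1821 in WT, and gene counts do not tell its alleles apart. These counts are not scaled for depth. The difference between genotypes did not pass the test described further on (log2 fold change 0.22, adjusted p = 0.741, edgeR). Epithelial and ameloblast markers were present throughout, with Krt14 between 589 and 1013 CPM (counts scaled to a fixed library total), Cdh1 between 56 and 119, Amelx between 10688 and 22277 and Ambn between 124685 and 250976. Markers of endothelium were also detected in all libraries, with Pecam1 between 14.2 and 26.0 CPM and Cdh5 between 3.35 and 8.99. In the tables each library is named by a number pair such as 4-2. The first number, called the library prefix here, has 3 values, and no label or header used here says what it stands for. Prefix 1 held 1 Het and 3 WT libraries, prefix 4 held 2 and 3, and prefix 5 held 2 and 2.

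Upstream sequences were available from RefSeq (GRCm38.p6) for 5 of the 7 genes, Id2, Id3, Id4, Atoh8 and Msx1. Those of Id4, Atoh8 and Msx1 are shown because Id4 and Msx1 are the genes of the 7 that differed between sets of libraries, as described further on, and because Atoh8 belongs to the family of factors that bind E-boxes. Each runs 5′ to 3′ over the 250 bases before the RefSeq start. Capitals mark 4 short motifs, sought on both strands: GGCGCC and GGAGCC, which SMAD proteins of the BMP branch are known to bind, CAGAC, which SMAD4 is known to bind, and the E-box CANNTG, which E proteins and their partners bind. No marked match overlaps another.
Id4 (chr13:48260866-48261115, plus strand): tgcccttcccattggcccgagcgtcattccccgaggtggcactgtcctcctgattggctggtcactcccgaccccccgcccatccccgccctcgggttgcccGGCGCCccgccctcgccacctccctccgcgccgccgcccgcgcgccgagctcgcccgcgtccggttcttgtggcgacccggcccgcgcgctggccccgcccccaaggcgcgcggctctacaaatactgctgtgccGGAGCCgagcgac
Atoh8 (chr6:72235578-72235827, minus strand): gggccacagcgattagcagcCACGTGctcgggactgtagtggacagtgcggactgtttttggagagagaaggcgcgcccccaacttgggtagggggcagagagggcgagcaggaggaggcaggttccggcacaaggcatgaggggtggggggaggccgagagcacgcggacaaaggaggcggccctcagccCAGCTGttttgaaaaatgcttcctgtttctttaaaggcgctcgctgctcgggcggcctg
Msx1 (chr5:37824586-37824835, minus strand): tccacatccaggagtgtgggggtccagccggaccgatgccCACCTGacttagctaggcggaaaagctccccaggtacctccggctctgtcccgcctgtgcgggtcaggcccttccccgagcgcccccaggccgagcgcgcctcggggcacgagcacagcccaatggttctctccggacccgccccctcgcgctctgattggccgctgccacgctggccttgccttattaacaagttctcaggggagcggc
The Id4 window holds 1 GGCGCC, 148 bases before the start, and 1 GGAGCC, 13 bases before it, and no CAGAC or E-box. Its start lies 112 bases from that of the GENCODE gene, and G and C make up 75.6% of it. The Atoh8 window holds E-boxes 230 and 59 bases before the start, and the Msx1 window holds 1 E-box, 210 bases before it. Neither holds any of the other 3 motifs. In the window of Id2, 1 GGCGCC, 1 GGAGCC and 1 E-box were found, and in that of Id3, 1 GGAGCC and 2 CAGAC. Both of these windows lie inside the GENCODE gene. Over 32851 promoter windows of 250 bases, 9.59% held GGCGCC, 26.0% GGAGCC, 42.2% CAGAC and 66.2% an E-box. A match is a run of letters and does not show that a protein binds there.

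Per length of exon, Bambi was the most abundant of the 7 transcripts and Atoh8 the least. Levels between genes were compared as CPM per kilobase of merged exon, over all 13 libraries. The median level was 47.3 for Bambi (range 31.8 to 66.1), 27.6 for Id3 (21.9 to 40.5), 25.3 for Id2 (19.0 to 30.6) and 12 for Msx1 (7.20 to 16.7). Id1 followed at 6.67 (3.97 to 9.61), Id4 at 6.15 (4.29 to 10.7) and Atoh8 at 0.507 (0.264 to 1.06). Bambi stood above Id3, Id2 above Msx1 and Id4 above Atoh8 in 13 of 13 libraries each, and Msx1 above Id1 in 12 of 13. Neighbours with no fixed order were Id3 and Id2, with Id3 above in 7 of 13 libraries, and Id1 and Id4, with Id1 above in 8 of 13. For scale, the median per kilobase of Bmp4, a BMP ligand, was 159 in Het and 212 in WT, and that of Msx2, the paralogue of Msx1, 15.5 and 12.7.

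The pool of Id transcripts was mostly Id3 and Id2. Summed per kilobase, the 4 Id genes came to 70.2 ± 3.74 CPM per kilobase in the 5 Het libraries (mean ± SD) and 66.3 ± 7.53 in the 8 WT libraries. Id3 made up 44.1% ± 5.58 of that sum in Het and 40.4% ± 4.39 in WT, and Id2 made up 37.0% ± 3.97 and 39.1% ± 3.85. Id1 made up 10.1% ± 1.78 and 9.81% ± 2.05, and Id4 8.82% ± 2.15 and 10.7% ± 2.35. These shares depend on the merged exon lengths. Undivided by length, the median CPM in Het and WT was 60.8 and 63.3 for Id2 and 52.3 and 48.4 for Id3. For Id4 it was 25.9 and 23.1, and for Id1 7.99 and 7.4. The E proteins with which Id proteins pair had lower medians per kilobase of merged exon. Their medians in Het and WT were 2.86 and 2.36 for Tcf3, 3.18 and 3.52 for Tcf4, and 2.85 and 2.86 for Tcf12. Merged exon joins all transcripts of a gene, 27382 bases for Tcf4 and 15529 for Tcf12 against 3849 for Id4. These medians therefore do not show which transcripts were more numerous. Before division by length, mean log2 CPM in Het and WT was 6.45 and 6.61 for Tcf4 and 5.98 and 5.97 for Id2. It was 3.48 and 3.28 for Tcf3 and 5.45 and 5.47 for Tcf12.

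None of the 7 genes passed the test between Het and WT. With edgeR's quasi-likelihood test and Benjamini-Hochberg adjustment over 16328 genes, 14 genes had an adjusted p under 0.05 (0.0857% of those tested), and 0 of the 7 were among them. At an unadjusted p under 0.05, the share over all genes was 6.90% and the count among the 7 was again 0. The ranges of Het and WT did not overlap in 80 genes (0.490%), and they overlapped in all 7 described here. With DESeq2, which called 0.453% of all genes after adjustment and 7.53% at an unadjusted p under 0.05, 0 of the 7 passed after adjustment. Id3 and Bambi, 2 of the 7, had an unadjusted p under 0.05 there. The differences ran from -0.21 for Id4 to 0.28 for Bambi on the log2 scale, 4 above 0 and 3 below, with a median of 0.11 against -0.0044 over all genes tested.

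**Figure D1:**
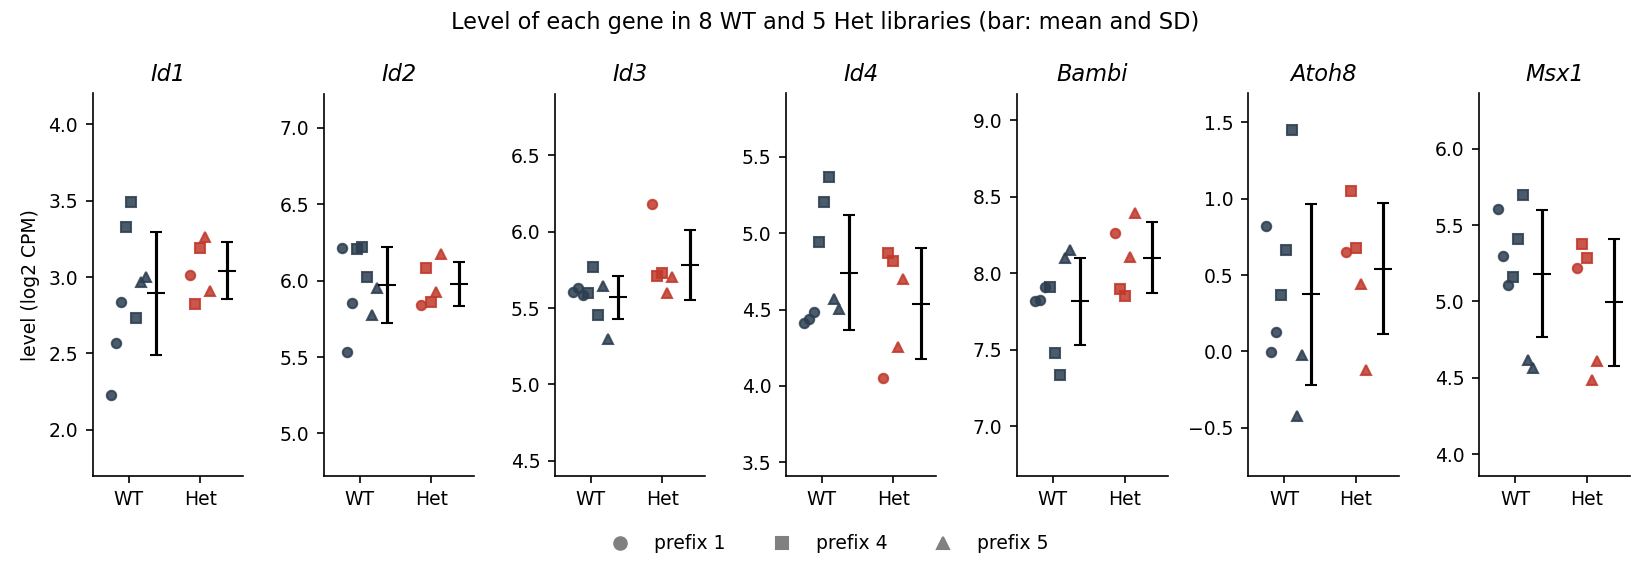
Level of each of the 7 genes in log2 CPM (vertical axis, a separate range for each gene) in 8 WT and 5 Het libraries, 1 point a library, with marker shapes for the library prefix and bars for mean and SD. The genotypes overlap for all 7 genes; in Id3, library Het 1-2 stands above the other 12.

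Id3 (ENSMUSG00000007872, chr4:136143497-136145755, plus strand) had the smallest p of the 7 between genotypes and did not pass the test. Its product pairs with E proteins as those of the other Id genes do. Its level in the 5 Het libraries (1-2, 4-2, 4-5, 5-5 and 5-6, the order kept for every gene) was 72.5, 52.3, 53.0, 48.3 and 52.0 CPM. In WT it ran from 39.3 through a median of 48.4 to 54.4 CPM. Library Het 1-2 lay above all WT libraries, 4 of 5 Het libraries lay above the WT median, and the groups overlapped. Mean log2 CPM (± SD) was 5.78 ± 0.23 over the Het libraries and 5.57 ± 0.14 over the WT libraries. The log2 fold change was 0.22 ± 0.11 (SE; 95% interval -0.00072 to 0.45; adjusted p = 0.728, edgeR). Without library Het 1-2 it was 0.11, with an unadjusted p of 0.266 in edgeR. An exact two-sided permutation test over all 1287 splits gave p = 0.0350, which became 0.677 after adjustment over all genes.

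Id2 (ENSMUSG00000020644, chr12:25093799-25097140, minus strand), whose product restrains differentiation in many epithelia and blood lineages, had a mean log2 CPM of 5.98 ± 0.14 in Het and 5.97 ± 0.25 in WT (SD). Its level was 57.2, 67.5, 58.1, 60.8 and 72.1 CPM in the Het libraries, and ran from 46.3 through a median of 63.3 to 74.5 CPM in WT. All 5 Het libraries fell inside the range of WT. The log2 fold change was -0.0066 ± 0.12 (SE; 95% interval -0.25 to 0.24; adjusted p = 0.995, edgeR), an interval that excludes a 1.5-fold difference in either direction.

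Id1 (ENSMUSG00000042745, chr2:152736251-152737410, plus strand), often used as a readout of BMP receptor activity, was 7.99, 7.00, 9.06, 9.52 and 7.43 CPM in the Het libraries. In WT it ran from 4.60 through a median of 7.40 to 11.1 CPM, so the Het libraries lay within the spread of WT. Het differed from WT by a log2 fold change of 0.11 ± 0.18 (SE; 95% interval -0.27 to 0.49; adjusted p = 0.926, edgeR), a value that ran from 0.033 without WT 1-1 to 0.21 without WT 4-3 when single libraries were left out. Within prefixes 1, 4 and 5 the difference was 0.47, -0.17 and 0.10.

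Id4 (ENSMUSG00000021379, chr13:48261228-48266026, plus strand), the Id gene known from neural and mammary progenitors, was 16.5, 29.1, 28.1, 19.0 and 25.9 CPM in the Het libraries. In WT it ran from 21.2 through a median of 23.1 to 41.1 CPM. Libraries Het 1-2 and Het 5-5 lay below all WT libraries, 3 WT libraries lay above all Het libraries, and the groups overlapped. Het differed from WT by a log2 fold change of -0.21 ± 0.18 (SE; 95% interval -0.59 to 0.17; adjusted p = 0.841, edgeR). When single libraries were left out it ran from -0.30 to -0.10, at -0.10 without Het 1-2, -0.11 without WT 4-4 and -0.14 without Het 5-5. The libraries are unstranded and Id4 overlaps 2 antisense genes, A330033J07Rik over 1396 bases and Gm49291 over 1364, so reads from these overlaps cannot be assigned to a strand.

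Bambi (ENSMUSG00000024232, chr18:3507923-3516404, plus strand) encodes a decoy receptor that resembles a type I receptor without the kinase domain and dampens TGF-beta and BMP signals. Its level was 307, 238, 230, 276 and 335 CPM in the Het libraries, and ran from 161 through a median of 233 to 284 CPM in WT. Libraries Het 1-2 and Het 5-6 lay above all WT libraries, and 4 WT libraries lay below all Het libraries. Mean log2 CPM (± SD) was 8.10 ± 0.23 over the Het libraries and 7.81 ± 0.28 over the WT libraries. The log2 fold change was 0.28 ± 0.14 (SE; 95% interval -0.01 to 0.57; adjusted p = 0.741, edgeR), and the exact permutation p was 0.0925. The difference was above 0 within each prefix, at 0.41, 0.30 and 0.13. With Id3 and Atoh8, 3 of the 7 had a higher Het mean in all 3 prefixes, as had 18.2% of all genes tested. A processed pseudogene, Bambi-ps1, held at most 13 counts in a library.

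Atoh8 (ENSMUSG00000037621, chr6:72206177-72235577, minus strand), a basic helix-loop-helix factor known to respond to BMP in endothelium and liver, was scarce. It had 19 to 47 counts in the Het libraries and 17 to 65 in WT. Its level was 1.49, 1.98, 1.52, 1.27 and 0.835 CPM in the Het libraries and ran from 0.661 through a median of 1.11 to 2.65 CPM in WT, so that all Het libraries fell inside the WT range. The log2 fold change was 0.11 ± 0.32 (SE; 95% interval -0.55 to 0.78; adjusted p = 0.963, edgeR). Its biological coefficient of variation, 0.365, was higher than that of 84.0% of genes tested, and the interval still holds a 1.5-fold difference upwards. With genotype alone, the intervals of Id4 and Msx1 reach just past a 1.5-fold difference downwards.

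Msx1 (ENSMUSG00000048450, chr5:37820485-37824583, minus strand), a homeobox factor that takes part with Bmp4 in signalling between tooth epithelium and mesenchyme, was 37.1, 41.4, 39.0, 22.3 and 24.4 CPM in the Het libraries. In WT it ran from 23.6 through a median of 37.5 to 51.9 CPM. The 2 lowest Het libraries and the 2 lowest WT libraries carry prefix 5, and the genotypes overlapped. The log2 fold change was -0.19 ± 0.19 (SE; 95% interval -0.60 to 0.21; adjusted p = 0.868, edgeR). When single libraries were left out it ran from -0.29 without Het 4-2 to -0.08 without Het 5-5, and it was -0.10 without Het 5-6 and -0.11 without WT 4-4. Within prefixes 1, 4 and 5 the difference was -0.12, -0.09 and -0.04. Msx1 and Id4, 2 of the 7, had a lower Het mean in all 3 prefixes, as had 18.1% of all genes tested.

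Adding the library prefix as a term to the model narrowed the intervals of all 7 genes and changed no call. In that fit 30 of 16328 genes had an adjusted p under 0.05 (0.184%), with 0 of the 7 among them. At an unadjusted p under 0.05 the share over all genes was 9.82%, and 3 of the 7 were in it. Id3 stood at 0.25 ± 0.09 (SE; adjusted p = 0.391, edgeR), Bambi at 0.26 ± 0.10 (adjusted p = 0.423) and Id4 at -0.25 ± 0.10 (adjusted p = 0.449), all on the log2 scale. Their 95% intervals, 0.06 to 0.45, 0.05 to 0.48 and -0.47 to -0.03, lie inside a 1.5-fold difference.

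**Figure D2:**
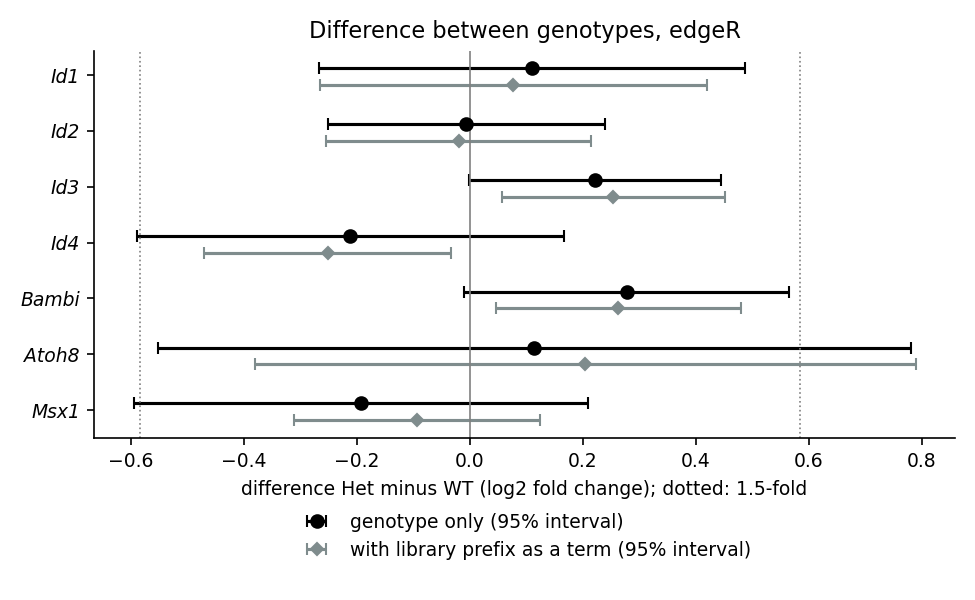
Difference between Het and WT for each of the 7 genes as a log2 fold change (horizontal axis) with its 95% interval, from edgeR with genotype alone (black circles) and with the library prefix as a term (grey diamonds); dotted lines mark 1.5-fold. With genotype alone every interval reaches 0; with the prefix term those of Id3, Id4 and Bambi do not.

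Msx1 and Id4 differed between library prefixes, which no other of the 7 did at the same threshold. This test, edgeR's quasi-likelihood test of the prefix term beside genotype, was added after the data were seen. It gave an adjusted p under 0.05 for 992 of 16328 genes (6.08%) and for 2 of the 7. Msx1 was at 22.3 to 24.5 CPM in the 4 libraries of prefix 5, below all 9 others, which ran from 34.3 to 51.9 CPM (adjusted p = 0.00386, edgeR). The mean log2 CPM of Msx1 was 5.31 ± 0.22 in prefix 1 (SD, n = 4), 5.39 ± 0.20 in prefix 4 (SD, n = 5) and 4.57 ± 0.06 in prefix 5 (SD, n = 4). Id4 separated the libraries in another way, with the 5 libraries of prefix 4 above all others. It was at 28.1 to 41.1 CPM there, against 16.5 to 22.3 in prefix 1 and 19.0 to 25.9 in prefix 5 (adjusted p = 0.00599, edgeR). Both calls held when any single library was left out, with adjusted p between 0.00211 and 0.0215 for Msx1 and between 0.00353 and 0.0195 for Id4 in edgeR.

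Bambi missed the threshold between prefixes, with levels of 226 to 307 CPM in prefix 1, 161 to 240 in prefix 4 and 274 to 335 in prefix 5 (adjusted p = 0.0599, edgeR). It passed without WT 1-1 and without WT 4-1. Without WT 4-1 its adjusted p was 0.0217, and without Het 4-5 it was 0.133, the lowest and highest in edgeR when single libraries were left out. The share of variance in log2 CPM that lay between prefixes was 84.7% for Msx1, 73.0% for Id4, 53.7% for Bambi and 52.3% for Atoh8. It was 36.9% for Id1, 21.3% for Id2 and 14.8% for Id3. Genotype accounted for at most 28.6%, in Id3. These shares are not adjusted for the number of groups, so by chance alone prefix takes a larger share than genotype.

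Some lists of markers for other cells also held genes that differed between prefixes, to be read against 6.08% of all genes. The 14 endothelial and pericyte markers averaged 4.22, 4.33 and 3.83 log2 CPM in prefixes 1, 4 and 5. Of these, 12 had their lowest mean in prefix 5 (85.7%, against 38.2% of all genes tested) and 4 differed between prefixes (28.6%). The 11 immediate-early genes averaged 2.05, 2.26 and 1.77, with 9 lowest in prefix 5 and 1 called (9.09%). The 11 fibroblast markers averaged 6.78, 7.01 and 6.63 with 4 called (36.4%), and the 9 markers of dental epithelium 9.91, 9.89 and 9.94 with 0 called. The lists for macrophages, odontoblasts and bone also held 0 called, and those for nerve and skeletal muscle 1 each. Skeletal muscle markers were highest in prefix 1, at 1.81 log2 CPM against 0.276 in prefix 4 and 0.694 in prefix 5. Between genotypes, summed endothelial and pericyte markers other than Rgs5 ran from 148 to 228 CPM in Het and from 155 to 252 in WT. Rgs5, which outweighs the other 13, was at 6561 to 14268 CPM over all libraries. No defining marker of endothelium was at 0 in any group, and the part of these cells in the levels of Msx1 and Id4 was not tested.

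**Figure D3:**
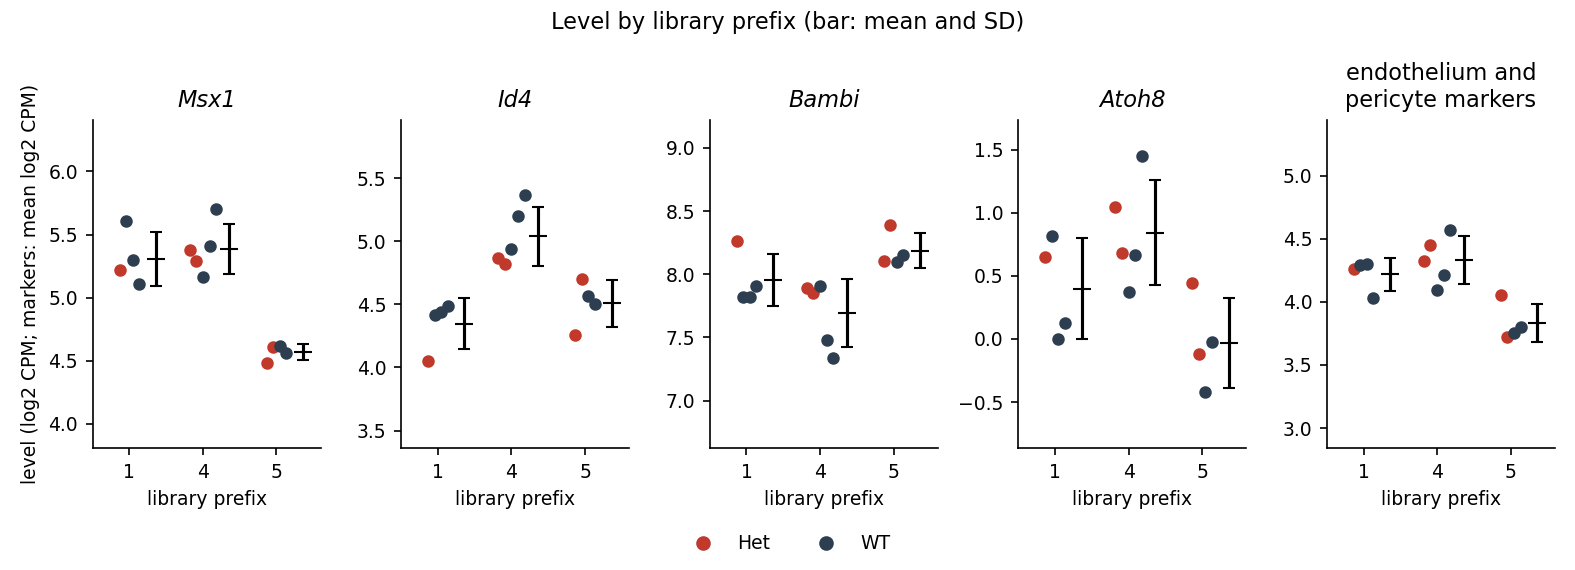
Level in log2 CPM (vertical axis, a separate range in each panel) by library prefix (horizontal axis) for Msx1, Id4, Bambi, Atoh8 and the mean of 14 endothelial and pericyte markers, 1 point a library coloured by genotype, with bars for mean and SD. Msx1 in the 4 libraries of prefix 5 lies below the other 9, and Id4 in the 5 libraries of prefix 4 lies above the other 8; both genotypes occur in each of these sets.

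Across libraries the 7 genes did not vary as a block. Of 21 pairs, 3 had an adjusted permutation p under 0.05 for Pearson's r over 13 libraries, and 2 did for Spearman's rho. After each prefix was centred on its mean, 0 did for r. Over the pooled libraries Id4 and Bambi ran opposite to each other, with r = -0.73 (permutation p = 0.00532, adjusted p = 0.0372) and rho = -0.48 (permutation p = 0.0975). Centred within prefix r was -0.67 (adjusted permutation p = 0.297). In prefixes 1, 4 and 5 taken singly it was -0.94, -0.96 and 0.70. The pooled value rested on libraries WT 4-3 and WT 4-4, since r was -0.33 without them. The other pairs both held Msx1, whose libraries fall into separate clusters, so no pooled r is given. They were also the 2 pairs that passed by rho (adjusted permutation p = 0.0358 for Atoh8 and Msx1, 0.00651 for Bambi and Msx1). Over the 9 libraries of prefixes 1 and 4, a set chosen after the data were seen, Atoh8 and Msx1 gave r = 0.77 (permutation p = 0.0155, adjusted 0.162). Bambi and Msx1 gave r = -0.68 in these 9 (permutation p = 0.0399, adjusted 0.279). In the 4 libraries of prefix 5, Msx1 spanned only 22.3 to 24.5 CPM, so r there does not show a direction. It was -0.95 for Atoh8 and Msx1 and 0.44 for Bambi and Msx1. Centred within prefix over all 13, r was 0.58 and -0.60 (adjusted permutation p = 0.306 for each).

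The levels of the 7 genes were also set against 9 marker lists. Of 63 relations, 4 had an adjusted permutation p under 0.05 for r over 13 libraries, 5 did by rho, and 0 did for r after centring within prefix. Without the 2 libraries farthest from the gene's median 1 did, Msx1 and the endothelial and pericyte list, called the endothelial list here (adjusted permutation p = 0.0139). Het 5-5 and WT 5-3 were left out there, and other libraries of prefix 5 stayed in. Atoh8 and the endothelial list gave r = 0.85 and rho = 0.85 (permutation p = 0.00025 and 0.00057, adjusted 0.00525 and 0.0213). Without libraries WT 4-4 and WT 5-1 r was 0.74 (permutation p = 0.00951, adjusted 0.120), and centred within prefix it was 0.73 (permutation p = 0.0159, adjusted 0.363). Atoh8 and the nerve and Schwann cell list gave r = 0.77 (adjusted permutation p = 0.0324) and 0.63 centred within prefix (adjusted 0.407). Msx1 and the endothelial list gave r = 0.72 over the 9 libraries of prefixes 1 and 4 (permutation p = 0.0265, adjusted 0.600). For Msx1 and the immediate-early list, the value over these 9 was 0.66 (permutation p = 0.0563, adjusted 0.634). In the 4 libraries of prefix 5, Msx1 spanned only 22.3 to 24.5 CPM, too little to read a direction from r. Its r there was -0.97 with the endothelial list and 0.72 with the immediate-early list. Centred within prefix over all 13, these were 0.50 and 0.66 (adjusted permutation p = 0.652 and 0.429). By rho alone, Bambi and the immediate-early list passed too, with rho = -0.76 (adjusted permutation p = 0.0398) and r = -0.68 (adjusted 0.0933), and r was -0.19 centred within prefix (adjusted 0.907). The values share library, depth and prefix.

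The rest of the BMP pathway held no gene past the threshold either. Leaving out the 7, 86 genes were listed by role and 75 were tested, of which 0 passed with edgeR's quasi-likelihood test after adjustment. At an unadjusted p under 0.05 there were 2 higher and 6 lower in Het, against 2.72% and 4.18% of all genes, and DESeq2 also gave 8 unadjusted and 0 adjusted. In all, 21 of the 75 had a log2 fold change above 0 and 54 below, with a median of -0.10 against -0.0044 over all genes. Over all genes tested, 8023 were above 0 and 8305 below. The lists were not tested as sets, and their genes share libraries and prefixes, so these counts are not of independent genes.

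Of 13 BMP ligands, 9 were tested, 4 with values above 0 and 5 below (median -0.05). Bmp4, a ligand central to tooth development, ran from 311 through a median of 358 to 451 CPM in Het and from 375 through 476 to 671 in WT. All 5 Het libraries lay below the WT median and 3 below every WT library, and the difference was -0.40 ± 0.14 (SE) on the log2 scale (adjusted p = 0.565, edgeR). Bmp8a ran from 10.8 to 16.4 CPM in Het and from 4.99 to 12.7 in WT, with a difference of 0.49 ± 0.20 (adjusted p = 0.635, edgeR).

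Of 17 antagonists and extracellular modulators, 16 were tested, 6 above 0 and 10 below (median -0.06). The smallest p values belonged to Bmper, a binding protein of BMPs, at -0.42 ± 0.31, and the antagonist Chrdl1, at 0.53 ± 0.42. Both moved with single libraries: Bmper was at -0.24 without Het 5-6 and -0.82 without Het 5-5, and Chrdl1 at 0.21 without Het 4-5 and 0.94 without WT 1-3. Of 12 receptors and co-receptors, 10 were tested, 3 above 0 and 7 below (median -0.09). Bmpr2, the type II BMP receptor, ran from 89.5 through a median of 98.1 to 117 CPM in Het and from 99.9 through 123 to 146 in WT. Of its WT libraries 6 lay above all Het libraries, and the difference was -0.28 ± 0.10 (adjusted p = 0.566, edgeR). Acvr2a, a type II receptor that BMPs and activins share, differed by 0.31 ± 0.14 (adjusted p = 0.706, edgeR).

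Of 14 SMADs and regulators, all 14 were tested, 4 above 0 and 10 below (median -0.11). Smad7, an inhibitory SMAD that TGF-beta and BMP signals both induce, ran from 45.9 through a median of 64.1 to 71.4 CPM in Het and from 54.7 through 78.7 to 111 in WT, a difference of -0.40 ± 0.16 (adjusted p = 0.635, edgeR). Tob2, a member of a family that represses BMP-activated SMADs, ran from 13.3 through 21.0 to 24.7 CPM in Het and from 17.7 through 27.4 to 38.1 in WT, a difference of -0.46 ± 0.18 (adjusted p = 0.629, edgeR). For both genes the 5 Het libraries lay below the WT median and the groups overlapped.

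Of 23 other genes known to respond to BMP, some of them also in the lists above, 21 were tested, 4 above 0 and 17 below (median -0.14). The smallest p belonged to Smad7 and to Gata3, a zinc-finger factor, at -0.65 ± 0.35 (adjusted p = 0.753, edgeR). Of these 21 genes 19 had their lowest mean in prefix 5 (90.5%, against 38.2% of all genes), and 4 differed between prefixes in edgeR (19.0%, against 6.08%). Of 11 E proteins and other helix-loop-helix partners, 9 were tested, 1 above 0 and 8 below (median -0.14). Tcf4 differed by -0.16 ± 0.09 and Bhlhe41 by -0.28 ± 0.16 (-0.17 without WT 4-3), each with an adjusted p of 0.762 in edgeR.

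**Figure D4:**
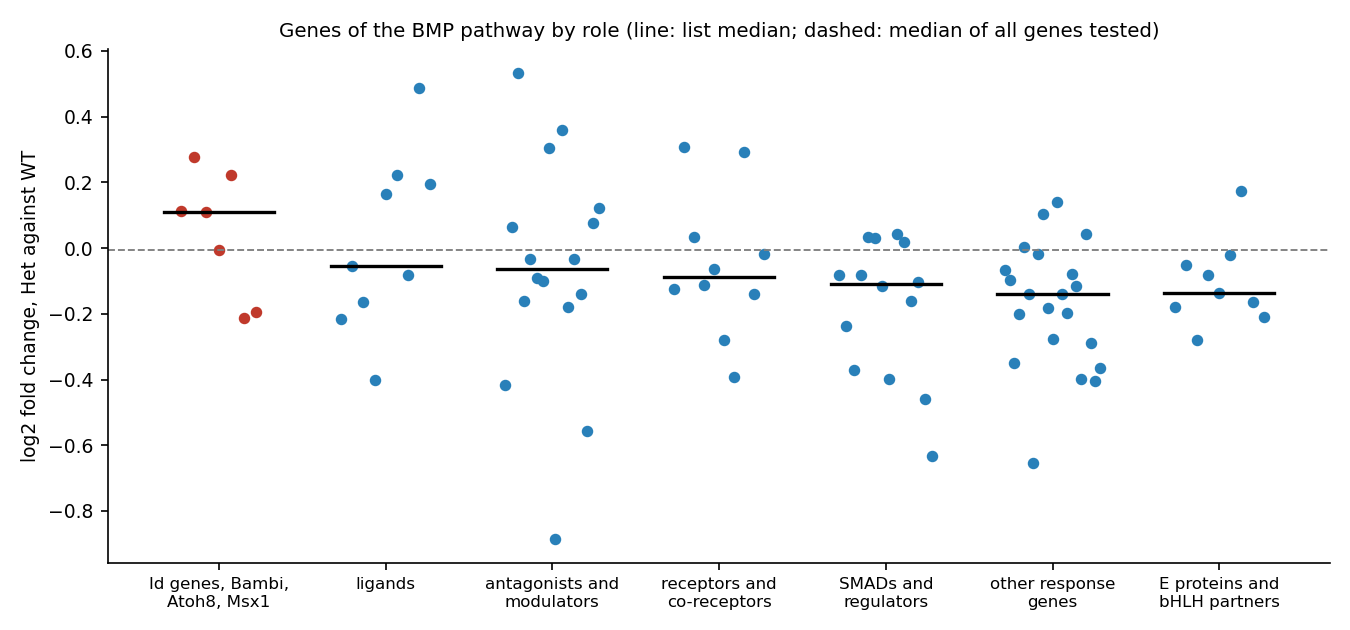
Log2 fold change, Het against WT (vertical axis), of every tested gene in each list of the BMP pathway by role, 1 point a gene; black lines give the list median and the dashed line the median of all genes tested. The 7 genes have a median of 0.11, and the medians of the other 6 lists lie between -0.14 and -0.05; no point passed the adjusted threshold.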

How the data were processed

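Bulk RNA-seq of 13 enamel organs was analysed from the deposited tables. Per the labels' protocols, libraries were made with an unstranded Nextera XT kit and pooled. STAR 2.5.2a and GRCm38, and DESeq2, edgeR and limma with no role, appear in the submitters' processing notes. How reads were counted, and on which annotation, the sources used here do not state. Raw counts as the authors deposited them cover 48733 features, of which 24 name no gene and held at most 0.000177% of a library's counts; they stayed out of library sizes and tests. The authors' filtered count table holds 21223 features with the same counts. A normalized signal, also deposited, equals the counts times 1 constant in each library and entered no test. Columns name the genotype but no replicate number of the labels, so they were assigned to genotypes only. Over 78 library pairs the lowest chi-square per gene was 11.1, so none was treated as a repeat.

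Symbols came from the reference table (48349 genes), positions and exon lengths from GENCODE M21 (GRCm38), which may not be the annotation the authors counted on. Genes were filtered with filterByExpr (count minimum 10) and compared by the quasi-likelihood F-test of edgeR 4.0.16 (R 4.3.3) with TMM factors and genotype as the only term, with Benjamini-Hochberg adjustment over 16328 genes and a threshold of 0.05. Log2 CPM used a prior count of 2, which raises low levels slightly and shrinks differences between them. SEs were derived from the F statistic. The exact permutation test covers 1287 splits (smallest p 0.000777), and correlations used 100000 permutations (scipy 1.17.1). Alternatives included DESeq2 1.42.0, limma 3.58.1 (voom), other factors and filters, the library prefix as a term, and libraries left out. On data simulated for Het against WT with 16328 genes, the test recovered 20.9% of genes changed 1.5-fold, 74.6% changed 2-fold and 92.4% changed 4-fold, and 5 of 130 calls were false. With 130 calls there and 14 in the data, the same adjusted threshold was easier to reach in the simulation. It also held no differences between prefixes, so recovery in the data may be lower.

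The 7 genes were given by symbol, not by measured values, while the gene lists and the tests were chosen with earlier results of these data known. Named besides the 7 are, in each pathway list, genes past the threshold and the 2 of smallest p, and for each of the 7 the 3 genes with the highest r of log2 CPM (mean log2 CPM at least 0; no Gm, Rik, ribosomal or mitochondrially encoded genes). The result for 1 gene named by this rule is not reported here. Other genes are named as markers or for scale.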

Additional observations from a re-analysis of the deposited data

Results flagged for a closer look

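In the group of Het libraries, Id3 in library Het 1-2 stood apart from the other 4, at 6.182 log2 CPM with the next library at 5.73 and the lowest at 5.595. Its gap to the next library was 0.771 of the group's range, above Dixon's critical value of 0.71 for 5 libraries. Of 14 groups checked (7 genes in 2 genotypes), 1 was singled out, and chance alone singles out about 1 in 20. Library Het 1-2 is the only Het library of prefix 1, and 1561 of its counts fell on Id3.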

How the results depend on the processing

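None of the 7 genes and no listed BMP pathway gene passed the adjusted threshold under any of the 26 alternatives. Among these, the exact permutation test (smallest p 0.000777) called 0 of 16328 genes (1143 at an unadjusted p under 0.05), so its 0 says nothing about the 7. The number of genes called, 14, became 27 with no filter beyond 1 count, 25 with at least 1 CPM in 5 libraries, 74 with DESeq2, 25 with weighted limma-voom and 30 with the prefix as a term. It was 0 without prefix 1 (731 at an unadjusted p under 0.05 in edgeR), 1 without prefix 4 and 2 without prefix 5, where fewer libraries were tested. Leaving out single libraries gave 6 to 22. It was 6 when either Het 4-2 or Het 5-6 was left out, 7 for Het 5-5, 8 for Het 1-2 and for WT 1-1, 9 for WT 1-4 and 22 for WT 5-1. The cause of these changes in the number of genes called was not tested.

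Id3, Id4, Bambi and Msx1 kept their sign in all 26 alternatives, though not their size. Id2, near 0, changed sign with limma-voom (0.0061, weighted 0.013), in the means of the exact permutation test (0.0050) and without prefix 4 (0.12), and ran from -0.059 to 0.034 when single libraries were left out. Atoh8 ran from -0.040 (without Het 4-2) to 0.34. Without prefix 1 Id1 was at -0.063, and without prefix 4 Chrdl1 was at -0.21. The pathway median stayed between -0.16 and -0.054. The 3 pairs of genes past the adjusted threshold became 0 after centring within prefix and 0 without the 2 farthest libraries. No paired analysis was possible by replicate number, because the columns carry no replicate numbers of the labels. A comparison blocked by library prefix was possible, since each prefix holds both genotypes. It is the fit with the prefix as a term, which called 30 genes and 0 of the 7. What the prefix stands for is not known, so that fit cannot be read as a pairing of littermates. Depth limits Atoh8 most, with 17 counts in its lowest library.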

Other observations

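Outside the BMP pathway, the genes whose levels followed each of the 7 most closely over the 13 libraries were taken from 12258 genes by Pearson's r of log2 CPM, as a description. They are picked as the highest of many values from libraries that share depth and prefix. For Msx1, whose libraries fall into separate clusters, only r after centring within prefix is given: 0.812 with Cxcl14, a chemokine, and 0.672 with Mrgprf. Atoh8 ran with Prdm11 (r = 0.922, and 0.867 after centring within prefix), Fes, a tyrosine kinase (0.913 and 0.888), and Col5a3, a fibrillar collagen chain (0.901 and 0.812). Bambi ran with Yae1d1 (0.954 and 0.900), Pcdh18, a protocadherin (0.951 and 0.925), and Tfg (0.948 and 0.895). Id4 ran with Tmem86b (0.903 and 0.735), Fosl2, an AP-1 factor (0.891 and 0.849), and Gpr153 (0.884 and 0.649).

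The other Id genes had no gene above 0.9. Id1 ran with Arid4b (0.856), Hnrnpa2b1 (0.852) and Psma6 (0.806), Id2 with Raly (0.897), Psmc2 (0.878) and Cbfa2t2 (0.867), and Id3 with Snx17 (0.893), Brms1 (0.872) and Fah (0.870). Psma6 and Psmc2 encode proteasome subunits, and none of the genes named here is in the BMP pathway lists used here.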
